A study of Mus musculus with 6 samples.

Results

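The leptin receptor gene Lepr, its neighbour Leprot and the relative Leprotl1 were examined in mouse liver together with genes of gp130 cytokine signalling: the receptors Il6ra, Il6st, Lifr and Osmr, the kinase gene Jak1, the transcription factor gene Stat3 and the feedback inhibitor gene Socs3. These 10 genes were chosen by symbol, with their values in this comparison already known, out of 22274 genes in the deposited table. Their differences between groups are therefore given as a description, without a test. All 10 were in the table, and all 10 passed the filter on low counts that left 13201 genes for testing. RNA came from livers of C57 mice that had all been infected with an adenovirus. In 3 samples the virus (Ad-Dyrk1b) overexpressed mouse Dyrk1b, which encodes a dual-specificity kinase, and in 3 control samples it was Ad-EGFP. Both groups thus share the infection, and no uninfected liver was analysed here. Dose, time after infection, age, sex, the promoter in the virus and whether samples came from separate mice were not given in the sources used here.

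Total counts per library ranged from 17326516 to 20024888. Dyrk1b itself, counted without separating viral from mouse transcripts, stood at 150.0, 269.8 and 247.8 CPM (counts relative to library size, scaled between libraries by TMM, the trimmed mean of M-values) in Ad-Dyrk1b replicates 1, 2 and 3. It stood at 9.04, 11.1 and 9.61 CPM in the Ad-EGFP replicates, so the libraries matched their labels. The sum of 6 hepatocyte markers in the table, Alb and Ttr among them, was 61798 to 82094 CPM in Ad-Dyrk1b and 74994 to 80460 CPM in Ad-EGFP livers. Of these 6 markers 2 had a positive log2 fold change, and none of the markers was at 0.

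Leptin is a hormone of fat tissue that signals the size of the energy stores, and its receptor belongs to the same structural family as gp130. The long receptor form carries the cytoplasmic tail that docks STAT3, whereas short forms lack most of that tail and a soluble form circulates in blood. Interleukin-6, leukaemia inhibitory factor (LIF) and oncostatin M each act through a receptor chain that pairs with gp130, the product of Il6st. JAK kinases bound to the receptors then phosphorylate STAT3, which in hepatocytes drives acute-phase genes and Socs3, whose product blocks further signalling.

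Sequences just before the RefSeq start sites are shown for Lepr, which had the largest difference of the 10 genes, and for Socs3, the textbook STAT3 target, to show where the letters of a STAT element occur. Each run holds the 250 bases before the start, 5′ to 3′, from RefSeq on build GRCm38.p6. RefSeq gives Lepr 2 start windows, of which the first is shown. Neither holds the element. Capitals mark the STAT element TTCNNNGAA, which reads the same on both strands.

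Lepr, chr4:101717157-101717406, plus strand: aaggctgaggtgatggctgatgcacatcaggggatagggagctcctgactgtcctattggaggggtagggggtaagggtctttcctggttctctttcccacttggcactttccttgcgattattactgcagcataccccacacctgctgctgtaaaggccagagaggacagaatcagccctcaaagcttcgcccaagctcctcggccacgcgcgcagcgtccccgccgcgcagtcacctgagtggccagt

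Socs3, chr11:117969367-117969616, minus strand: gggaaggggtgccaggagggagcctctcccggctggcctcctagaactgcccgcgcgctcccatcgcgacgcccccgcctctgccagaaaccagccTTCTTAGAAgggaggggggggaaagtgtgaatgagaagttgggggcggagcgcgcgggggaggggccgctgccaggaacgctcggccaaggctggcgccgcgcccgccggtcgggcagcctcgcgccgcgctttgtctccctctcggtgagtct

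The element was searched in windows that run from 250 bases before to 50 bases after each start. Of the 10 genes, 9 had an entry, with 11 windows in all, and Leprotl1 had none. The Socs3 window was the 1 of 11 that held the element, as TTCTTAGAA at position -154 from the start. Of all 32851 windows, 8.3% held it. The tighter form TTCCNGGAA, which is contained in the wider one, was in 1.15% of all windows and in 0 of the 11. A match is a string of letters and not a measured binding site.

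Lepr (ENSMUSG00000057722, chromosome 4, 101717404 to 101815352, plus strand, mm10) stood at 55.9, 57.9 and 80.4 CPM in Ad-Dyrk1b replicates 1, 2 and 3. In the Ad-EGFP replicates it stood at 13.9, 12.3 and 11.6 CPM. All Ad-Dyrk1b libraries thus lay far above all Ad-EGFP libraries, and Ad-Dyrk1b replicate 3 was the highest. These levels rest on 1082 to 1385 counts per Ad-Dyrk1b library and 209 to 251 per Ad-EGFP library. The means were 64.7 ± 13.6 and 12.6 ± 1.19 CPM (SD, n = 3 each), and the fitted log2 fold change of Ad-Dyrk1b over Ad-EGFP was 2.36 ± 0.15 (standard error), or 5.14-fold. Of the 13201 tested genes, 63 had a larger log2 fold change. Leaving out Ad-Dyrk1b replicate 3 gave a log2 fold change of 2.18. In bulk tissue, more cells of a type that expresses the gene and more RNA per cell cannot be told apart.

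**Figure D1:**
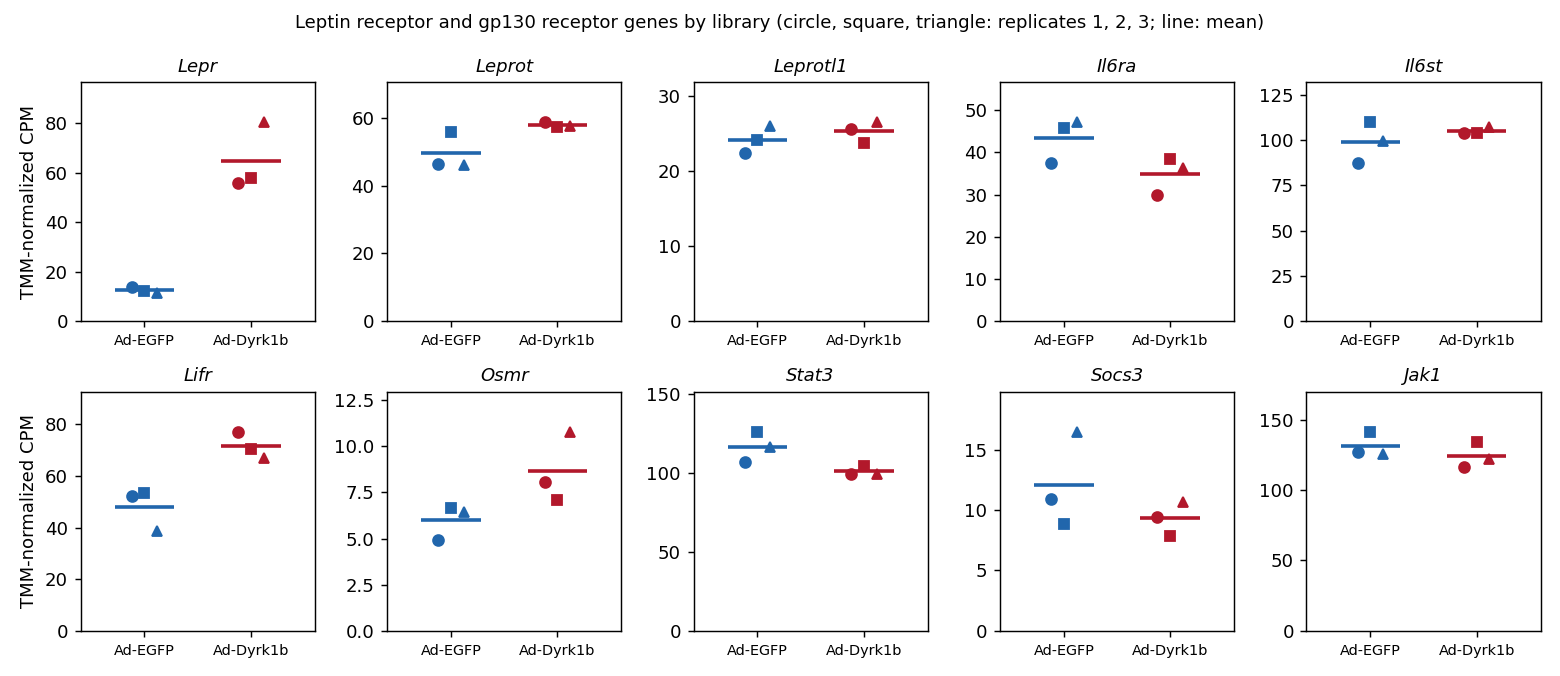
TMM-normalized CPM of the 10 genes in each of the 6 libraries (points; circle, square and triangle for replicates 1, 2 and 3) with the group mean (line), each axis starting at 0. Lepr stood at 55.9 to 80.4 CPM in Ad-Dyrk1b and 11.6 to 13.9 CPM in Ad-EGFP livers, and the other 9 genes differed far less.

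Leprot (chromosome 4, 101647718 to 101659364, plus strand) lies upstream of Lepr on the same strand and encodes a small membrane protein known to lower the amount of leptin receptor at the cell surface. It stood at 58.6, 57.1 and 57.4 CPM in the Ad-Dyrk1b replicates and at 46.4, 55.8 and 46.1 CPM in the Ad-EGFP replicates. The groups did not overlap in CPM, but Ad-EGFP replicate 2 came close to the Ad-Dyrk1b libraries, and in FPKM (fragments scaled to transcript length and library depth) the groups overlapped. Leprot had a log2 fold change of 0.22 ± 0.11, against 2.36 for Lepr next to it. GENCODE release M21 places no exon of another gene on an exon of Lepr or Leprot. Leprotl1 (chromosome 8), a close relative of Leprot, ranged from 23.7 to 26.5 CPM in Ad-Dyrk1b and from 22.4 to 25.9 CPM in Ad-EGFP livers. These groups overlapped, with a log2 fold change of 0.07 ± 0.12.

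Among the gp130 family receptors, Lifr, which encodes the receptor chain for LIF (chromosome 15, 7090614 to 7197489), differed next most. It stood at 77.2, 70.5 and 66.8 CPM in the Ad-Dyrk1b replicates and at 52.2, 53.6 and 38.7 CPM in the Ad-EGFP replicates. The groups did not overlap, and Ad-EGFP replicate 3 was the lowest library. Lifr had a log2 fold change of 0.57 ± 0.13, or 1.49-fold, and of 0.43 without Ad-EGFP replicate 3.

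Osmr, which encodes the oncostatin M receptor chain (chromosome 15, 6813577 to 6874969), was the least abundant of the 10 genes per length. It stood at 8.07, 7.11 and 10.8 CPM in the Ad-Dyrk1b replicates and at 4.94, 6.67 and 6.44 CPM in the Ad-EGFP replicates. Ad-Dyrk1b replicate 2 lay just above the highest control library, and on the FPKM scale the groups overlapped. Osmr had a log2 fold change of 0.52 ± 0.21 in all libraries and of 0.34 without Ad-Dyrk1b replicate 3, its highest library.

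Il6st, the gene of gp130 (chromosome 13, 112464070 to 112510086), stood at 103.7, 104.1 and 107.0 CPM in the Ad-Dyrk1b replicates, within the span of the Ad-EGFP replicates at 87.5, 109.8 and 99.5 CPM. Its log2 fold change was 0.09 ± 0.11. The shared chain of the family was thus at a similar level in both groups, while the spread was wider among the controls. Il6ra, which encodes the chain that binds interleukin-6 (chromosome 3, 89864059 to 89913196), stood at 29.8, 38.5 and 36.3 CPM in the Ad-Dyrk1b replicates and at 37.4, 45.7 and 47.1 CPM in the Ad-EGFP replicates. Its mean was lower in Ad-Dyrk1b livers, but the groups overlapped at Ad-Dyrk1b replicate 2 and Ad-EGFP replicate 1. Il6ra had a log2 fold change of -0.32 ± 0.13.

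Downstream of the receptors, Stat3 (chromosome 11, 100885098 to 100939540) stood at 99.2, 104.3 and 99.6 CPM in the Ad-Dyrk1b replicates and at 107.2, 126.2 and 116.3 CPM in the Ad-EGFP replicates. The groups did not overlap, although the gap between the nearest libraries was small. Stat3 had a log2 fold change of -0.21 ± 0.10. Jak1 (chromosome 4, 101152367 to 101265282), a kinase gene whose product binds gp130, ranged from 116.2 to 134.3 CPM in Ad-Dyrk1b and from 125.8 to 141.5 CPM in Ad-EGFP livers. The log2 fold change of Jak1 was -0.08 ± 0.10. Exons of Stat3 overlap those of Stat5a, and exons of Jak1 those of Raver2, each on the opposite strand, and exons of Il6ra overlap the non-coding Gm42809. Without a stated strand setting, reads in those overlaps cannot be assigned with certainty.

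Socs3 (chromosome 11, 117966079 to 117970047), which encodes the feedback inhibitor, stood at 9.46, 7.86 and 10.6 CPM in the Ad-Dyrk1b replicates and at 10.9, 8.81 and 16.5 CPM in the Ad-EGFP replicates. The groups overlapped, and the control mean was raised by Ad-EGFP replicate 3. The log2 fold change of Socs3 was -0.37 ± 0.22 in all libraries and -0.08 without that library.

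Of the 10 genes, 6 had a positive and 4 a negative log2 fold change, with a median of 0.08 beside -0.005 over all tested genes. Lepr and Lifr, 2 of the 10, were past an edgeR adjusted p of 0.05, as were 12.2% of all tested genes (7.36% higher and 4.81% lower). Nothing is read from that share, or from these 2 genes passing, because the genes were chosen with this contrast known. The groups did not overlap in CPM in 5 of the 10 genes, 4 of them higher and 1 (Stat3) lower, beside 33.5% of all tested genes (16.8% higher and 16.7% lower). In FPKM they did not overlap in 4, namely Lepr and Lifr (higher) and Stat3 and Jak1 (lower), beside 32.8% of all tested genes. Without Ad-Dyrk1b replicate 1, Lifr had a log2 fold change of 0.51 and was not past the adjusted p threshold, given as description only. In the authors' deposited table the log2 ratio of mean FPKM was 2.28 for Lepr and 0.69 for Lifr.

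**Figure D2:**
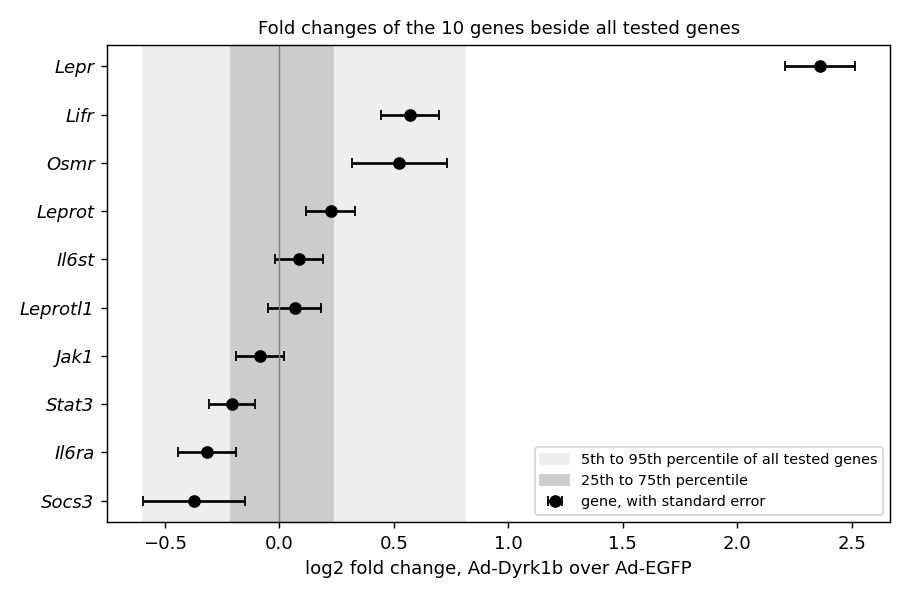
Fitted log2 fold change of Ad-Dyrk1b over Ad-EGFP for each gene (point) with its standard error (bar), over bands that span the 25th to 75th and the 5th to 95th percentile of all 13201 tested genes. Lepr at 2.36 lies beyond the outer band, and the other 9 genes lie within it.

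Per unit of length, Lepr moved up 3 ranks among the 10 genes, from 9 to 6. In Ad-EGFP livers Jak1, Leprot and Stat3 led with 27.6 ± 2.19, 27.1 ± 3.25 and 26.7 ± 2.72 FPKM (SD, n = 3 each), and neighbours in this order overlapped. Il6st followed at 15.02 ± 2.18 FPKM, separate from both neighbours. Leprotl1, Lifr, Il6ra and Socs3 came next at 8.64 ± 0.774, 8.05 ± 1.63, 5.75 ± 1.23 and 4.88 ± 1.63 FPKM, each overlapping the next. Lepr came next at 2.34 ± 0.182 FPKM and Osmr last at 1.13 ± 0.201 FPKM, with no overlap between them.

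In Ad-Dyrk1b livers Leprot led with 29.6 ± 1.76 FPKM, ahead of Jak1 at 24.5 ± 0.903, Stat3 at 21.8 ± 0.555 and Il6st at 15.9 ± 0.735 FPKM, and none of these neighbours overlapped. Lifr followed at 13.0 ± 1.22 FPKM and Lepr at 11.4 ± 2.30 FPKM, and this pair overlapped. Leprotl1 at 8.54 ± 0.731 FPKM was below the range of Lepr. Il6ra and Socs3 overlapped at 4.42 ± 0.608 and 3.55 ± 0.595 FPKM, and Osmr remained lowest at 1.54 ± 0.352 FPKM.

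**Figure D3:**
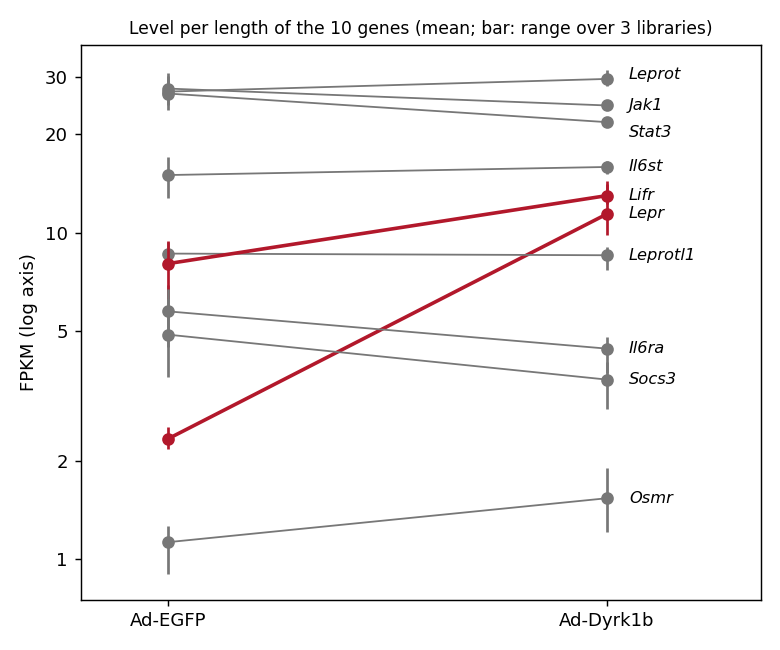
Mean FPKM of each gene in both groups on a log axis, with a bar for the range over 3 libraries; Lepr and Lifr are in red. Lepr moved from rank 9 in Ad-EGFP to rank 6 in Ad-Dyrk1b livers, next to Lifr.

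The deposited counts and FPKM together imply the transcript length the authors' scaling used, which is the count divided by FPKM and library size. The lengths of each library were then divided by their median ratio to the mean length of each gene over all libraries. In 787 genes with a single annotated transcript the implied length lay within 1% of the GENCODE length in 98.3%. In genes with several transcripts it may reflect how reads were shared out among them, which was not tested. The authors' method for sharing out reads was not given in the sources used here, and no transcript values were used. Osmr was left out because of an FPKM under 1 in 1 library, and the other 9 genes were among the 10226 with enough signal. The groups did not overlap in implied length in 11.0% of those 10226 genes, and 5.56% were shorter in Ad-Dyrk1b livers.

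Lifr had implied lengths of 5463, 5325 and 5262 bases in the Ad-Dyrk1b replicates and of 6179, 5952 and 6436 bases in the Ad-EGFP replicates. The groups did not overlap, and the difference of the means was -13.6%. GENCODE lists Lifr transcripts of 9655, 4143 and 3392 bases that encode the full receptor of 1092 residues, and shorter ones of 2844 and 2489 bases that encode 719 residues. Il6st had 6378 to 6435 bases in Ad-Dyrk1b and 6711 to 6900 bases in Ad-EGFP livers, a difference of -5.72% without overlap. Its transcripts of 8678, 5207 and 2985 bases all encode gp130 of 917 residues. A difference of at least 5% without overlap, a limit set after these values were seen, occurred in 2.48% of the 10226 genes. For Lifr the higher count and the shorter implied length together gave a larger log2 ratio in FPKM than in counts.

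Lepr had nearly the same implied length in all libraries, 5491 to 5508 bases in Ad-Dyrk1b and 5509 to 5542 bases in Ad-EGFP livers. Though the groups did not overlap, their means differed by only -0.53%. The annotated transcript of nearest length, Lepr-203 of 5542 bases, encodes a short receptor form of 894 residues. The annotated transcript for the long form of 1162 residues, Lepr-201, has 4127 bases. Il6ra varied between libraries in both groups, from 6914 to 8425 bases, and the groups overlapped. Jak1 at 4905 to 4906 bases and Socs3 at 2549 to 2555 bases were constant.

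**Figure D4:**
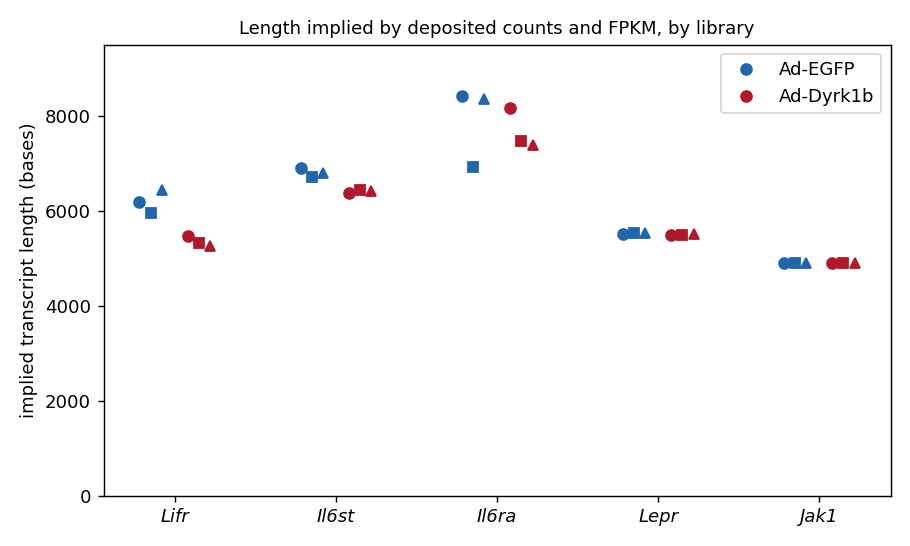
Transcript length in bases implied by deposited counts and FPKM for 5 genes in each library (points; circle, square and triangle for replicates 1, 2 and 3). Lifr lies at 5262 to 5463 bases in Ad-Dyrk1b and 5952 to 6436 bases in Ad-EGFP livers, whereas Lepr and Jak1 hardly vary.

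Genes of the same pathway outside the 10 were tested across all 13201 genes. Of 14 other ligands and receptors, 8 passed the filter. Lif, which encodes a ligand of the Lifr chain, was the 1 called, and it fell by 0.96 ± 0.26 on the log2 scale (edgeR adjusted p = 0.0291). Its libraries held 36, 34 and 28 counts in the Ad-Dyrk1b replicates and 66, 66 and 55 in the Ad-EGFP replicates, without overlap. This call was lost when any 1 library was left out (edgeR adjusted p = 0.0509 to 0.0848). None of the 8 was called higher by edgeR, DESeq2 or limma-voom. At an unadjusted edgeR p of 0.05, 0 of them were higher and 2 lower. The share of all tested genes past it was not computed. That share is at least the 12.2% past the adjusted threshold, so nothing is read from these counts. Beside Lif the lower gene was Ctf1, the cardiotrophin gene, at -0.69 ± 0.23 without overlap (edgeR adjusted p = 0.0723). The median of the 8 was 0.14, beside -0.005 over all tested genes, and 12.5% were called beside 12.2% of all tested genes.

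Most ligands were near the limit of detection. Lep, the leptin gene, had 1 count in Ad-Dyrk1b replicate 1 and 0 in the other 5 libraries, and Il11 had 1 count in a single library of each group. Il6 had 6, 3 and 2 counts in the Ad-Dyrk1b replicates and 1, 2 and 2 in the Ad-EGFP replicates. Osm, the oncostatin M gene, had 5, 5 and 4 counts in the Ad-Dyrk1b replicates and 1, 0 and 1 in the Ad-EGFP replicates. None of these ligands was tested, and 3 counts correspond to 0.150 to 0.173 CPM. Leptin and most of these cytokines are made chiefly outside hepatocytes, so liver RNA does not measure the amount that reaches the receptors.

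Of 28 kinases, STAT factors, phosphatases, adaptors, inhibitors and shedding proteases, edgeR called 0, beside 12.2% of all tested genes. An unadjusted edgeR p of 0.05 was passed by 3 higher and 2 lower genes. The share of all tested genes past it was not computed. That share is at least the 12.2% past the adjusted threshold, so nothing is read from these counts. DESeq2 called 1 higher, beside 1179 higher and 715 lower of 13200 genes. With limma-voom 0 were called, beside 919 higher and 581 lower of 13201 genes. The median was 0.03 beside -0.005 over all tested genes. For the kinase genes Jak2 and Tyk2 the log2 fold change was 0.13 ± 0.14 and 0.15 ± 0.12, with an edgeR adjusted p of 0.576 and 0.454. For the SOCS family inhibitor genes Socs1, Socs2 and Cish it was 0.41 ± 0.34, 0.66 ± 0.25 and 0.57 ± 0.18, with an edgeR adjusted p of 0.455, 0.119 and 0.0648. Socs2 stood at 8.94, 20.3 and 15.9 CPM in the Ad-Dyrk1b replicates and at 9.593, 9.516 and 9.496 CPM in the Ad-EGFP replicates, so 1 Ad-Dyrk1b library lay below the controls. Without that library, replicate 1, edgeR called both Socs2 and Cish higher (adjusted p = 0.00662 and 0.0403). Cish was also called without Ad-EGFP replicate 3 (edgeR adjusted p = 0.0276), by DESeq2 (adjusted p = 0.037), without the filter on low counts (edgeR adjusted p = 0.046) and with the replicate block (edgeR adjusted p = 0.0225). In the other 4 fits that left out 1 library the adjusted p of Cish was 0.166 to 0.191 in edgeR. Leaving out Ad-Dyrk1b replicate 2 lowered the log2 value of Socs2 to 0.38, with an edgeR adjusted p of 0.338.

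Of 35 acute-phase and STAT3 target genes, all tested, edgeR called 3 higher and 3 lower, which is 17.1% beside 12.2% of all tested genes. The median was -0.05, with 15 members above 0 and 20 below. Many of these genes also respond to other signals, such as interleukin-1, so the list is not specific to STAT3.

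The 3 that rose encode 2 plasma proteins of the acute phase and a receptor. Orm2, an orosomucoid gene, stood at 144.5, 139.7 and 106.7 CPM in the Ad-Dyrk1b replicates and at 41.2, 24.4 and 56.7 CPM in the Ad-EGFP replicates. It rose by 1.68 ± 0.30 on the log2 scale (edgeR adjusted p = 0.018), but did not keep its call when Ad-Dyrk1b replicate 1, Ad-Dyrk1b replicate 2 or Ad-EGFP replicate 1 was left out (edgeR adjusted p = 0.0695, 0.0705 and 0.0971) or without the filter on low counts (0.0551). Crp, the C-reactive protein gene, stood at 131.2, 177.2 and 177.4 CPM against 103.0, 93.03 and 108.9 CPM. It rose by 0.67 ± 0.13 (edgeR adjusted p = 0.00565) and was called in every fit that left out 1 library. Il1r1, the interleukin-1 receptor gene, rose by 0.50 ± 0.10 (edgeR adjusted p = 0.00816), a call lost with limma-trend on log2(FPKM + 1) and log2(FPKM + 0.1) (limma adjusted p = 0.0557 and 0.0541).

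The 3 that fell were Saa3, Steap4 and Pim3. Saa3, a serum amyloid gene, stood at 13.3, 9.31 and 8.65 CPM in the Ad-Dyrk1b replicates and at 61.2, 43.5 and 106.4 CPM in the Ad-EGFP replicates, well apart. It fell by 2.75 ± 0.39 (edgeR adjusted p = 0.0106), but leaving out Ad-Dyrk1b replicate 2 ended the call (edgeR adjusted p = 0.0641). Steap4, a metalloreductase gene, fell by 0.55 ± 0.12 (edgeR adjusted p = 0.0107) and was called in every fit that left out 1 library. Pim3, a kinase gene, fell by 0.42 ± 0.12 (edgeR adjusted p = 0.0325). With 1 library left out its adjusted p was 0.0339 to 0.103 in edgeR, and 1 of those 6 fits, the one lacking Ad-Dyrk1b replicate 2, kept the call. Some Orm and Saa genes, such as Saa1 and Saa2, have near-identical copies. How reads that match several copies were treated was not given in the sources used here.

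The remaining 29 target genes were not called by edgeR without the replicate block. Among them the liver-type serum amyloid genes Saa1 and Saa2 varied widely within both groups, Saa1 from 16.3 to 51.4 CPM in Ad-Dyrk1b and from 15.1 to 63.0 CPM in Ad-EGFP livers. As in Socs3, Ad-EGFP replicate 3 was the highest library in both, and in Saa3. The fibrinogen chain genes differed among themselves, with log2 fold changes of -0.33 ± 0.12 for Fga, -0.26 ± 0.12 for Fgg and 0.10 ± 0.12 for Fgb (edgeR adjusted p = 0.0883, 0.17 and 0.626). Fga and Fgg were lower without overlap of the groups, and Fgb overlapped. Cp, the ceruloplasmin gene, was also lower without overlap, at -0.30 ± 0.13 (edgeR adjusted p = 0.145). The haptoglobin gene Hp overlapped, at -0.02 ± 0.14 (edgeR adjusted p = 0.946). Apcs, which encodes serum amyloid P, had a log2 fold change of 0.67 ± 0.26 without overlap in CPM (edgeR adjusted p = 0.147). DESeq2 called 4 target genes higher and 4 lower, adding Apcs and Fga, beside 1179 higher and 715 lower of 13200 genes. Apcs was also called by edgeR with the replicate block, Fga and Cp by limma-trend on both FPKM scales.

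**Figure D5:**
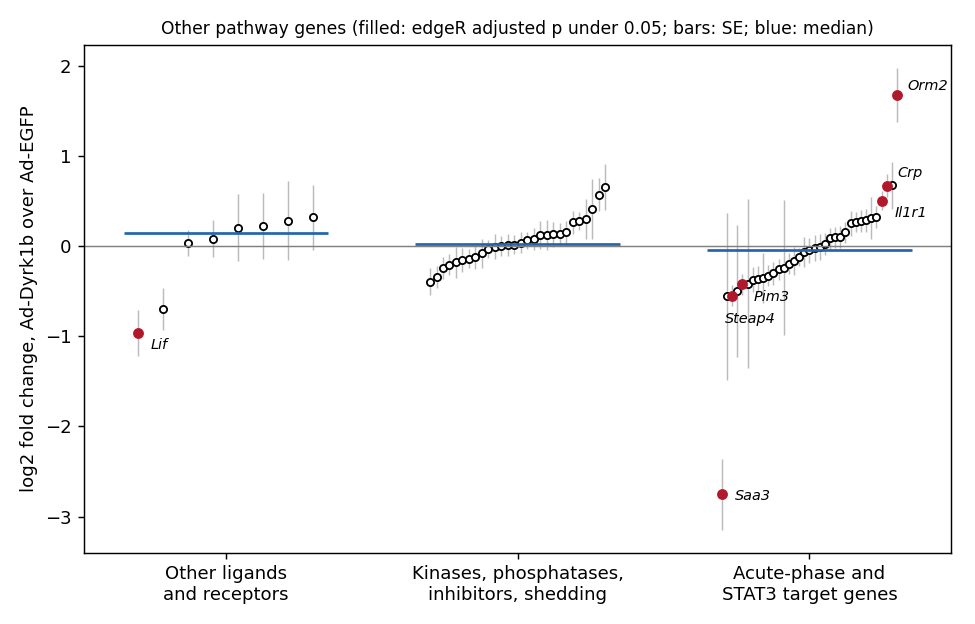
Log2 fold change of Ad-Dyrk1b over Ad-EGFP (points) with the standard error (bars) for tested genes of 3 lists, ordered within each list; filled points passed an edgeR adjusted p of 0.05 and blue lines are medians. The medians lie at 0.14, 0.03 and -0.05, and 7 genes in all were called, none in the middle list.

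The 5 genes whose pattern over the 6 libraries was most like that of Lepr were Npas2, Lama3, Cyp2c40, Ces3b and Cyp4a10. Likeness was the root mean square difference of centred log2 CPM, with a prior count of 2 that shrinks differences of scarce genes most. It was 0.13 log2 units for Npas2, a clock transcription factor gene, and 0.22 for Cyp4a10, a fatty acid hydroxylase gene. Cyp2c40 (a cytochrome P450) had group means of 101.2 FPKM with Ad-Dyrk1b and 21.3 FPKM with Ad-EGFP, and Ces3b (a carboxylesterase) of 11.5 and 2.86 FPKM. Npas2 and Lama3 (a laminin chain) were scarce in both groups, at 0.297 and 0.407 FPKM in Ad-Dyrk1b and 0.04 and 0.063 FPKM in Ad-EGFP livers. Their fitted log2 fold changes, 2.93 ± 0.49 and 2.66 ± 0.38, were larger than the 2.36 of Lepr, so their rank as closest depends on the prior count. None of the other 9 genes was among these 5. Likeness depends largely on the size of the group difference, which in those 9 was at most 0.57 (Lifr). Their absence was thus nearly fixed beforehand and is not a result about them.

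The summed level of the markers did not overlap between groups, and was higher in Ad-Dyrk1b livers, for 4 of 8 other cell types. Among all tested genes taken singly, 16.8% did not overlap and were higher in Ad-Dyrk1b livers. The sum of 8 sinusoidal endothelial markers was 199.9 to 277.6 CPM in Ad-Dyrk1b and 131.8 to 198.5 CPM in Ad-EGFP livers, with all 8 above 0 in log2 fold change. The sum of 8 T and NK cell markers was 31.8 to 42.1 CPM against 18.6 to 25.3 CPM, and all 6 tested ones were above 0. The sum of 6 bile duct markers was 330.6 to 427.2 CPM against 201.0 to 239.2 CPM, with 4 of the 6 above 0 and 2 below. Sums overlapped between groups for 8 macrophage, 4 B cell, 5 neutrophil and 8 stellate cell markers. Of the stellate markers 7 were below 0 in log2 fold change. Above 0 were 6 of 7 tested macrophage, 2 of 2 B cell and 3 of 3 neutrophil markers. Over all marker lists edgeR called 4 markers, each higher, where 7.36% of all tested genes were called higher. They were Gzmb (1 of 6 tested T and NK cell markers), Spp1 (1 of 6 for bile duct), Cd68 (1 of 7 for macrophages) and Cyp2e1 (1 of 6 for hepatocytes). Erythroid markers summed to 868.3 to 3816.9 CPM in Ad-Dyrk1b and 522.2 to 839.5 CPM in Ad-EGFP livers, with all 6 above 0. The median erythroid sum was 1112.8 CPM in Ad-Dyrk1b livers, so the top of that range rests on 1 library. None of the markers in these lists was at 0 in all libraries. Their part in the levels of Lepr, Lifr and the other genes was not tested.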

How the data were processed

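Liver RNA of 6 mouse samples was measured by mRNA sequencing. The authors deposited whole-number counts per gene and library and FPKM values, named as such per the file headers. They also deposited group means, the log2 ratio of those means and a p-value with its adjusted value, per the file headers. Per the submitters' processing notes the build was mm10 and DESeq2 was used. Aligner, counting tool and strand setting were not given in the sources used here. P-values reflect only how much the 6 samples varied, which may be technical.

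Counts were fitted over all genes with edgeR 4.0.16 in R 4.3.3 (filterByExpr, minimum count 10, minimum total 15; TMM; robust quasi-likelihood F-test, two-sided) and adjusted by Benjamini-Hochberg. Standard errors are the log2 fold change over the root of the F statistic. Replicates of a group differed by more than sampling noise. The fit was tested on simulated data. Floors of 3 counts cover counting error only.

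The genes, the lists and the named-gene rule were chosen with earlier results of these data known. The rule named the 10 genes, Dyrk1b, up to 6 called genes per list, Il6, Lep, Lif, Osm, Il11, Jak2, Tyk2, Socs1, Socs2 and Cish, and the 5 genes most like Lepr. Ctf1, Saa1, Saa2, Hp, Fga, Fgb, Fgg, Cp, Apcs and the named markers were chosen after their values were seen. Coordinates and transcript lengths are from GENCODE M21, on the same build, and 15 of the 77 list genes share exon bases with another coding gene. Alternatives were DESeq2 1.42.0, limma-voom and limma-trend (limma 3.58.1; FPKM with a pseudocount of 1 or 0.1), upper-quartile scaling, no filter, the replicate block and leaving out each library.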

Additional observations from a re-analysis of the deposited data

How the results depend on the processing

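With limma-trend on log2(FPKM + 1) and log2(FPKM + 0.1), 566 and 569 genes were called higher, against 972, and the share of higher calls was 44.3% and 44.0%, against 60.5%. Under the same settings 2 ligand or receptor genes (Lif and Ctf1) and 5 target genes were called lower, against 1 and 3. Over all genes, lower calls also rose, to 712 and 725, against 635. The median of all tested genes moved to -0.064 and -0.083, against -0.005, so shifts of list medians are partly shared by all genes. For the signalling list the median was -0.047 and -0.052, against 0.028. The median of the ligand and receptor list was 0.019 with log2(FPKM + 1), against 0.145. DESeq2, edgeR without the filter on low counts and edgeR with the replicate block each called 1 signalling gene higher (Cish), against 0. Over all genes these 3 settings called 1179, 1019 and 1109 higher, against 972. With 1 library left out, 612 to 800 genes were called higher and 294 to 461 lower. In those fits 0 ligand or receptor genes were called in either direction, 0 to 2 signalling genes were called higher and 0 lower, and 2 to 3 target genes were called higher and 2 lower. The medians ranged from 0.03 to 0.18 for ligands and receptors, 0.01 to 0.05 for signalling genes and -0.15 to 0.06 for targets.

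The log2 fold change of Lepr was 1.88 to 2.37 and that of Lifr 0.57 to 0.70 over the 7 settings that kept all libraries. Replicate numbers were not taken to pair the samples. Same-numbered libraries correlated at 0.02, 0.17 and 0.11 in their deviations from the group means, and 5 of the 6 libraries correlated best with their own number, all but Ad-Dyrk1b replicate 1. The replicate block raised the calls to 1109 higher and 774 lower, against 972 and 635, and called 4 target genes higher, against 3.

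Depth limits the ligands Il6, Lep, Osm and Il11, which had 0 to 6 counts per library. With 3 libraries a group, the precision of all values is limited by the number of samples.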
